A study of Mus musculus with 4 samples.

Results

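The aminoacyl-tRNA synthetases are the enzymes that join each amino acid to its tRNA, the step that sets which amino acid a codon is read as. Animal cells keep separate sets for the cytosol and for mitochondria, all of them encoded in the nucleus, and a few genes, among them Gars and Kars, make both forms. Several cytosolic enzymes are held in a multisynthetase complex by scaffold proteins, and many synthetase genes are targets of ATF4, the transcription factor of the amino acid response. A list of 36 mouse genes was used, 20 for cytosolic and 16 for mitochondrial enzymes, and members were found by gene symbol. Of these, 35 had a row of their own among 25126 named genes (19 cytosolic and 16 mitochondrial), and all 35 had a mean of at least 1 FPKM, a count of fragments scaled to transcript length and library size, over the groups, a floor that 10773 named genes reached. The cytosolic alanine enzyme gene Aars stood only in a row shared with Exosc6, an exosome subunit gene, and is given apart from the counts.

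The RNA came from an immortalised mouse podocyte line, podocytes being the epithelial cells that wrap the capillaries of the kidney filter. All cells were kept for 12 days under differentiation conditions and transfected with 50 nM of oligonucleotide 48 hours before RNA was extracted. One group received a pre-miR-93 mimic and the other a pre-nontargeting mimic (NT mimic) as its control. Each group had 2 libraries, and the table gave 1 pooled FPKM per group. The level per library, its depth and the spread between replicates are therefore unknown, and every difference below is a description without an error or a test.

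The table names its groups only q1 and q2. Here q1 was read as the miR-93 mimic. The study shows Rps6ka4, the gene of the kinase Msk2, as lower with this mimic. The Rps6ka4 row held 9.68 FPKM in q1 and 14.7 in q2, and since it fixed the reading its direction is no independent evidence. If the reading were wrong, every direction below would turn round. The podocyte label was met in part: of 10 marker genes 6 reached 1 FPKM in at least one group, among them Synpo and Actn4, while genes such as Nphs1, Ptpro and Magi2 stayed under 1 in both. Summed marker levels were 420 (miR-93 mimic) and 426 FPKM (NT mimic) for podocytes, 32.1 and 48.1 for tubule, 20.0 and 19.3 for mesangium, 8.17 and 6.32 for leukocytes, and 0.256 and 0.232 for endothelium. The podocyte sum was mostly Actn4 and Synpo, whose log2 ratios, miR-93 mimic over NT mimic, were both 0.00, while those of Wt1 (0.51), Podxl (-0.47) and Cd2ap (-0.23) went both ways. The tubule sum was nearly all Lrp2, the mesangium sum Pdgfrb, and the leukocyte sum Cd68 and Csf1r. Under 1 FPKM in both groups were 5 of 6 tubule, 3 of 4 mesangium, 3 of 5 leukocyte and 5 of 5 endothelium markers. The part of other cells in the values below was not tested. Fewer cells of a type and less RNA per cell cannot be told apart in such data.

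The miRNA and its matches among the synthetases are shown first, since a miRNA pairs with its target mRNAs through its seed. The mature miR-93-5p of RefSeq lies at chr5:138165574-138165596 on the minus strand of build GRCm38.p6, and capitals mark the seed, bases 2 to 8.
miR-93-5p: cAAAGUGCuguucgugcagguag
A site of 7 or 8 bases for miR-93 holds at least the match to bases 2 to 7, with the match to base 8 (a 7mer-m8 site), an A opposite base 1 (a 7mer-A1 site) or both (an 8mer site). Such a site was found in the longest annotated 3′ UTR of 4 of 35 members (11.4%), against 22.5% of 10014 genes with a 3′ UTR. The members' 3′ UTRs were short, with a median of 526 bases against 1205. Another 6 members had only a match of 6 bases and 25 had none. In the 4 stretches of 30 bases below, from build GRCm38, capitals mark the match.
Mars2: aaactgattagGCACTTTAcaaattggaaa
Tars2: tggttttctaaGCACTTTAcattccatgag
Wars2: actgtgcaggtGCACTTTgtctgtgttgtg
Mars: tgacacaaagtCACTTTActggacatggac
The matches shown, the best of each gene, lie at chr1:55241452-55241459 (plus strand, Mars2), chr3:95744163-95744170 (minus, Tars2), chr3:99217168-99217174 (plus, Wars2) and chr10:127296268-127296274 (minus, Mars). Mars2 and Tars2, for the mitochondrial methionine and threonine enzymes, hold the full 8-base word. Not shown are a 7mer-A1 site at base 6651 of the Mars2 UTR and such sites at bases 878 and 1491 of the Tars2 UTR. The Mars2 UTR is annotated as 9470 bases, longer than the whole locus of 6955 bases in the deposited table, and its 8-base site begins at base 2452.

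Across the synthetases the levels differed far more than the groups did. The highest member with the NT mimic was Sars, the cytosolic serine enzyme (246.9 FPKM), and the lowest Pars2, the mitochondrial proline enzyme (1.82 FPKM), 135-fold apart. Cytosolic enzymes had a median of 39.7 FPKM (13.1 to 246.9) and mitochondrial enzymes 4.17 (1.82 to 23.0). The medians were 9.54-fold apart with the NT mimic and 8.77-fold with the miR-93 mimic. The ranges overlapped only at their edges, since 14 of 16 mitochondrial genes lay below the lowest cytosolic gene, Vars, and 18 of 19 cytosolic genes above the highest mitochondrial gene, Iars2. The order was nearly the same in both groups, with 20 of 35 members at the same rank and no member moved by more than 3 ranks.

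**Figure D1:**
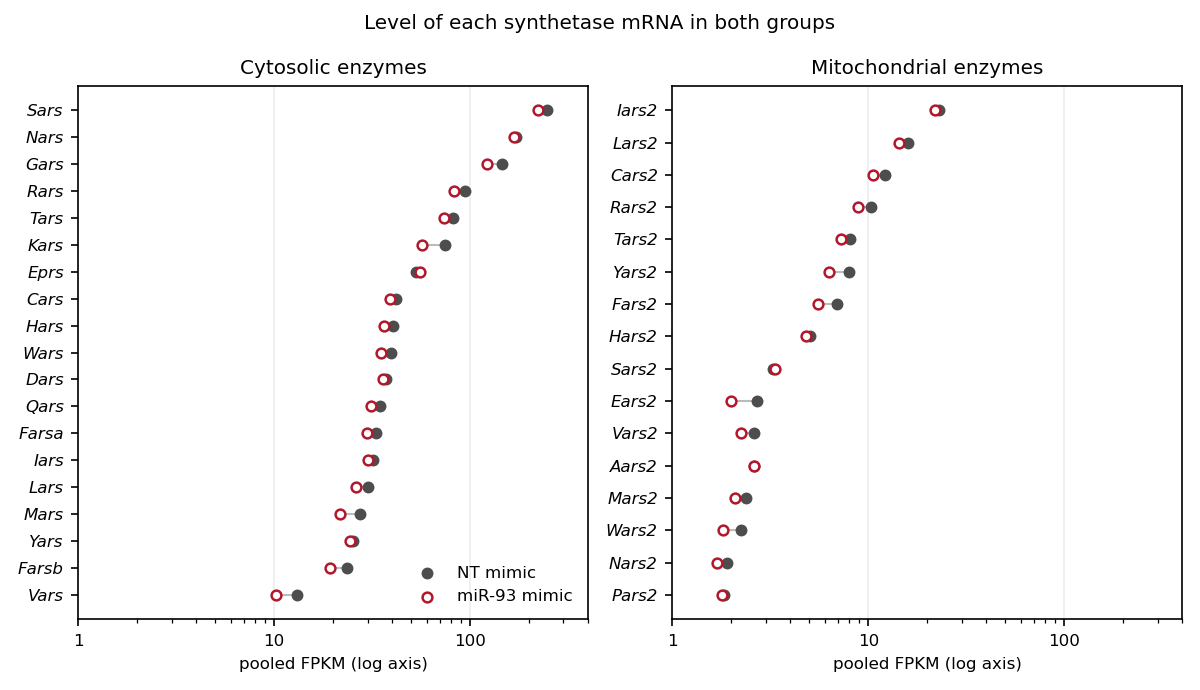
Pooled FPKM of the 35 synthetase genes on a log axis, cytosolic enzymes on the left and mitochondrial on the right, with filled points for the NT mimic and open points for the miR-93 mimic. The cytosolic genes spanned 13.1 to 246.9 FPKM with the NT mimic and the mitochondrial genes 1.82 to 23.0, and in 33 of 35 genes the open point lay lower.

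For amino acids with a separate enzyme in each compartment, 15 pairs could be formed, with Eprs, which carries glutamate and proline activity in one protein, standing in a pair with each. The cytosolic gene was the higher one in 15 of 15. The fold ran from 1.39 for isoleucine (Iars 32.1 and Iars2 23.0 FPKM) to 91.2 for asparagine (Nars 172.6 and Nars2 1.89), with a median of 9.12. Serine came next to asparagine at 75.6-fold. Hars and Hars2 lie side by side on chromosome 18 of build mm9 with 73 bases between their loci, and their levels were 7.94-fold apart (40.2 and 5.07 FPKM).

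**Figure D2:**
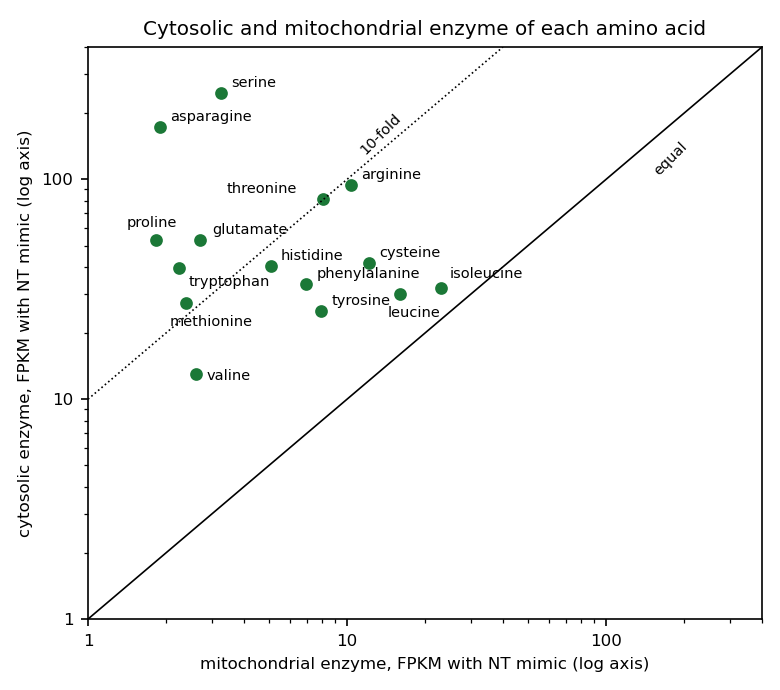
FPKM of the cytosolic enzyme against that of the mitochondrial enzyme for 15 amino acid pairs with the NT mimic, both axes logarithmic, the solid line marking equal levels and the dotted line a 10-fold difference. All 15 points lie above the line of equal levels, from 1.39-fold for isoleucine to 91.2-fold for asparagine.

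With the miR-93 mimic 33 of 35 synthetases were lower than with the NT mimic, against 69.5% of all genes over the floor. The differences were small. The log2 ratio, miR-93 mimic over NT mimic after adding 0.1 FPKM to each, had a median of -0.16 over the synthetases and -0.09 over all genes, and 26 of 35 members lay below the median of all genes. No member reached 0.5 in either direction, the fold of the study's methods, where 3.77% of all genes were lower and 1.83% higher by that much. At a smaller fold of 0.25, 9 of 35 were lower (25.7%) and none higher, against 17.4% and 6.12% of all genes. Genes of like level were those in the same broad band of mean FPKM (1 to 10, 10 to 100, or 100 or more). Among genes of like level, 0 of 35 members lay outside the middle 95% of log2 ratios. Below the lower quartile, where 25% of such genes lie, were 12 of 35, and 1 lay above the upper quartile. After the all-gene median was subtracted from each gene, 4 of 35 were lower by 0.25 or more, against 9.92% of all genes, a share near this background.

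The 2 compartments differed little. The median log2 ratio was -0.16 for cytosolic enzymes (SD over genes 0.118) and -0.17 for mitochondrial enzymes (SD 0.127), a difference of 0.01. This difference had the opposite sign (-0.01) when 1 FPKM was added instead of 0.1, and was 0.05 with a floor of 5 FPKM. Of the cytosolic enzymes 5 of 19 and of the mitochondrial enzymes 4 of 16 were lower by 0.25 or more. Within pairs, the cytosolic log2 ratio was the higher one in 8 and the lower one in 7.

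**Figure D3:**
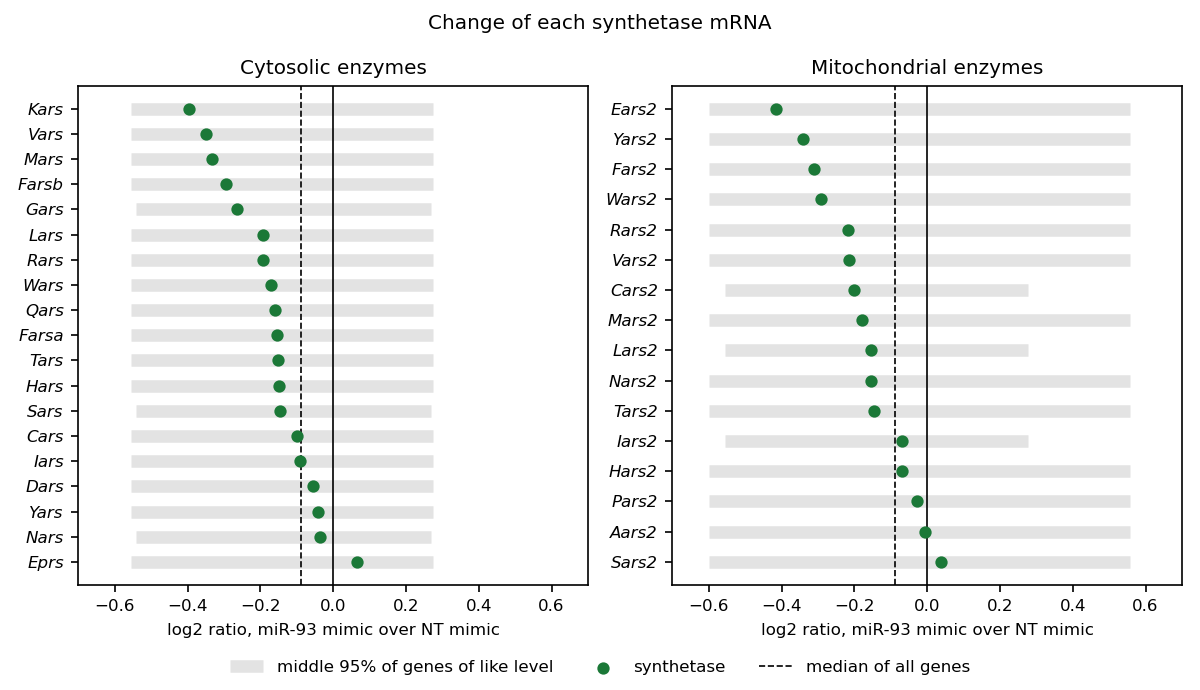
Log2 ratio of pooled FPKM, miR-93 mimic over NT mimic, for each synthetase, cytosolic on the left and mitochondrial on the right, with grey bars for the middle 95% of genes of like level and a dashed line for the median of all genes. No point lies outside its grey bar, and 9 points lie at or below -0.25.

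Among the cytosolic enzymes the lowest ratio was that of Kars, the lysine enzyme of both compartments, at 8:114517339-114535205 of mm9 (56.9 and 74.9 FPKM with the miR-93 and the NT mimic, log2 -0.40). Vars, for valine, came next (10.3 and 13.1, log2 -0.35), then Mars, for methionine (21.7 and 27.4, log2 -0.33). Farsb, the beta subunit of the phenylalanine enzyme, followed (19.3 and 23.7, log2 -0.29), while Farsa, its alpha subunit, had 29.9 and 33.3 FPKM (log2 -0.16). Gars, the glycine enzyme of both compartments, was the fifth gene past 0.25 (121.4 and 145.8, log2 -0.26). The other cytosolic genes held smaller differences. Lars for leucine (26.3 and 30.1) and Rars for arginine (82.4 and 94.2) were both at a log2 ratio of -0.19, and Wars for tryptophan (35.3 and 39.7) at -0.17. Qars for glutamine had 31.2 and 34.9 FPKM (log2 -0.16). Near the median of the set sat Tars for threonine (73.4 and 81.5 FPKM), Hars for histidine (36.3 and 40.2) and Sars for serine (223.0 and 246.9), each at -0.15, beside Farsa. Cars for cysteine (39.0 and 41.7, log2 -0.10) and Iars for isoleucine (30.1 and 32.1, log2 -0.09) lay at the all-gene median. Dars for aspartate (35.9 and 37.3, log2 -0.06), Yars for tyrosine (24.5 and 25.2, log2 -0.04) and Nars for asparagine (168.4 and 172.6, log2 -0.04) lay above it. Eprs was the only cytosolic member above 0 (55.5 and 53.0, log2 0.06). The row shared by Aars and Exosc6 held 115.6 and 124.7 FPKM (log2 -0.11) at 8:113557817-113581499 of mm9, and its reads cannot be divided between both genes.

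Among the mitochondrial enzymes Ears2, for glutamate, had the lowest ratio of all members (2.00 and 2.71 FPKM, log2 -0.42), in contrast to Eprs, which gave the widest pair difference (0.48 on the log2 scale). This rank depended on the pseudocount: with 1 FPKM added instead of 0.1, Ears2 was at -0.30 and Kars, at -0.39, was lowest. Yars2 for tyrosine (6.27 and 7.96, log2 -0.34), Fars2 for phenylalanine (5.56 and 6.93, log2 -0.31) and Wars2 for tryptophan (1.81 and 2.24, log2 -0.29) were also past 0.25. Of these mitochondrial genes, Ears2 and Wars2 were below 3 FPKM in both groups. Next were Rars2 (8.87 and 10.3, log2 -0.22), Vars2 (2.24 and 2.61, log2 -0.21), Cars2 (10.6 and 12.2, log2 -0.20) and Mars2 (2.09 and 2.39, log2 -0.18). Lars2 (14.3 and 16.0, log2 -0.16), Nars2 (1.69 and 1.89, log2 -0.15) and Tars2 (7.26 and 8.05, log2 -0.15) lay near the middle of the set. Iars2 (21.9 and 23.0) and Hars2 (4.83 and 5.07) were at -0.07, Pars2 (1.79 and 1.82) at -0.03, Aars2 for alanine (2.60 and 2.61) at -0.01, and Sars2 for serine was the other member above 0 (3.36 and 3.27, log2 0.04).

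By role the differences were also small. The 8 enzymes of the multisynthetase complex had a median log2 ratio of -0.18 and the 11 cytosolic enzymes outside it -0.15. By the fold of the catalytic domain, the 18 class I enzymes had -0.19 and the 16 class II enzymes -0.15, Eprs, which has both, counting in neither. The 4 members with a site of 7 or 8 bases for miR-93 had a median of -0.24 and the 31 others -0.16, beside -0.13 for all 2254 genes with such a site and -0.08 for the 7760 without. Of the 4, Mars and Wars2 were past 0.25 and Mars2 and Tars2, which hold the 8-base word, were not. Among all genes the 460 with an 8-base site had a median of -0.26.

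Genes that work with the synthetases were taken as lists. The scaffold genes of the multisynthetase complex, Aimp1 (40.7 and 47.6 FPKM), Aimp2 (26.5 and 29.1) and Eef1e1 (21.2 and 25.1), had log2 ratios of -0.22, -0.13 and -0.24, and none passed 0.25. Their median was -0.22. In mitochondria glutamine is put on its tRNA by an amidotransferase rather than by a synthetase, and the genes of its subunits Qrsl1, Pet112l and Gatc together with the formyltransferase gene Mtfmt had a median of -0.15, with 0 of 4 past 0.25. The range ran from -0.24 (Mtfmt) and -0.17 (Gatc) to -0.12 (Qrsl1) and -0.11 (Pet112l). The 6 genes listed for tRNA delivery to the ribosome, elongation factors and proteins that work with them, had a median of -0.19. Lowest were Tufm, the mitochondrial elongation factor (1.74 and 2.43 FPKM, log2 -0.46), and Eef1g (62.5 and 76.5, log2 -0.29). Highest was Eef1a1, at 1620 and 1752 FPKM (log2 -0.11), before Tsfm (log2 -0.15). For proofreading and recycling, 4 of 6 genes had a row, with a median of -0.12, and Dtd1 (-0.20) and Aarsd1 (-0.13) were lowest, before Ptrh2 (-0.12). The list of tRNA maturation and export also held genes of tRNA gene transcription, among them Bdp1. In this list 24 of 25 genes passed the floor, with a median of -0.12. By 0.25 or more, 5 were lower (20.8%) and 0 higher, against 17.4% and 6.12% of all genes. Rpp38 (-0.44) and Rpp21 (-0.32), both of RNase P, were lowest there, and Pop4 (0.23) and Bdp1 (0.11) highest.

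The genes of the amino acid response had values in both directions. Atf4 itself had 214.0 and 229.7 FPKM (log2 -0.10), Ddit3 341.3 and 321.6 (log2 0.09), Trib3 7.37 and 8.30 (log2 -0.17) and Asns, asparagine synthetase, 58.3 and 64.2 (log2 -0.14). Eif2ak4, the kinase that senses uncharged tRNA, had 6.36 and 6.94 (log2 -0.13). The list of ATF4 targets other than synthetases also counted Atf4, and 32 of its genes passed the floor, with a median of -0.08. Of these 32, 7 were lower (21.9%) and 2 higher by 0.25 or more, against 17.4% and 6.12% of all genes. The extremes were Vldlr (-0.43) and Gpt2 (-0.42), and Atf3 (0.34) and Cth (0.28). Over 8 genes of eIF2 control the median was -0.08, from Ppp1r15b (-0.37) and Eif2ak3 (-0.21) to Impact (0.03) and Eif2ak1 (0.04). For comparison, cytosolic ribosomal protein genes (74) had a median of -0.21 and mitochondrial ribosomal protein genes (72) -0.13, sets chosen by name after the values were seen.

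**Figure D4:**
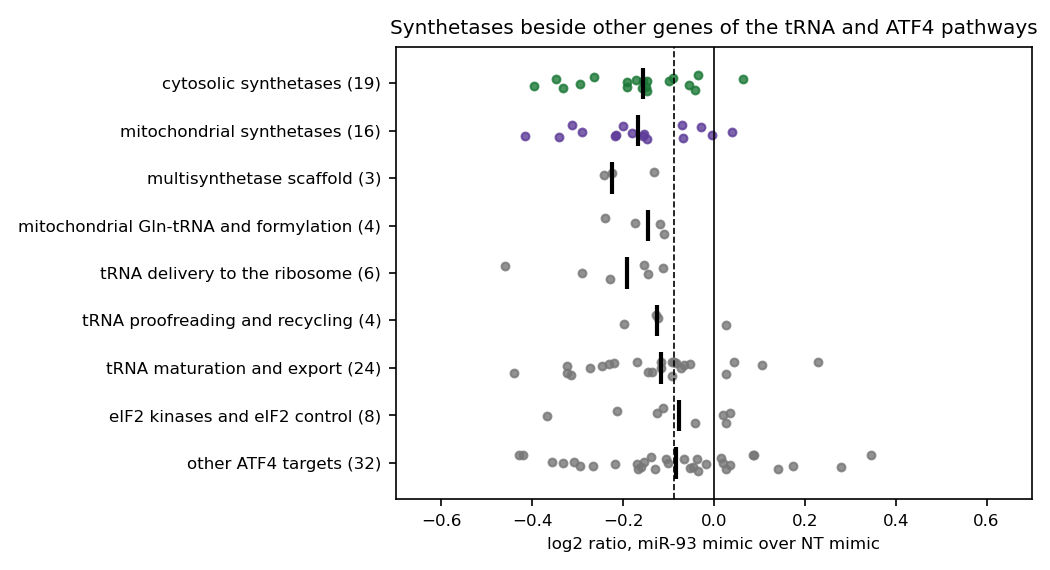
Log2 ratio of pooled FPKM, miR-93 mimic over NT mimic, for each gene of the synthetase sets and of the related lists, with a black bar for each median, a dashed line for the median of all genes and the number of genes in parentheses. The medians of the cytosolic (-0.16) and mitochondrial (-0.17) synthetases lie below the dashed line (-0.09), and those of eIF2 control and ATF4 targets with Atf4 itself (both -0.08) lie on it.

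Promoters were searched because many synthetase genes are known ATF4 targets. RefSeq promoters of build GRCm38.p6, 250 bases before to 50 after the start, were found for 27 of 36 members. The composite element of ATF4 and C/EBP, TGATGNAA on either strand, occurred in 5 of 27 members (18.5%) against 3.97% of all 32851 promoters. For each motif the members were counted by gene (27 genes with 28 promoters). The background counted every promoter, whether or not its gene reached the floor, so the sets are unlike. Capitals mark it in the stretches of 4 of them below, on the strand of the gene, so that most show its reverse complement.
Yars: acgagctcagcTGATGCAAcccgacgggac
Gars: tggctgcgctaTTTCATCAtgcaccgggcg
Iars: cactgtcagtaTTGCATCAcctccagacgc
Tars: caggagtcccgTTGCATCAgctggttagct
These lie at chr4:129189895-129189924 (Yars), chr6:55037960-55037989 (Gars), chr13:49682126-49682155 (Iars) and chr15:11399655-11399684 (minus strand, Tars), the others on the plus strand. The 4 genes shown are of the cytosolic list, though Gars makes the enzyme of both compartments. Their log2 ratios ran from -0.26 (Gars) to -0.04 (Yars). The E box CACGTG, which reads the same on both strands and shared no base with the composite element in these promoters, occurred in 5 of 27 members (among them Ears2, Farsb, Iars and Tars) against 7.15%, and the interferon response element in 1 of 27 (Qars) against 3.44%.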

How the data were processed

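The deposited table held 29286 gene rows. According to the submitters' processing notes, FastQC and Trimmomatic were run on the reads, TopHat2 2.0.4 aligned them to mm9, and Cufflinks and Cuffdiff2 followed, the latter pooling the 2 libraries of each group. The sources used here give no other version. The deposited FPKM values are the authors' pooled values of each group. The table's fold changes, test statistics, p- and q-values hold the authors' own comparison and were not used, nor were the 4 shorter tables. Without values per library, depth is unknown and no test could be run.

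Rows with several genes, no name or a name turned into a date entered no list, and a gene with several rows was given by its highest. Members and lists were chosen with earlier results of these data known. The text gives all 36 members, the 2 highest and 2 lowest genes of each list, and 9 genes set by name, except a few items not reported here. 3′ UTRs came from GENCODE M21 (GRCm38), with 10014 of 10773 genes matched by symbol, and promoters from RefSeq. Python 3.11.15, pandas 2.3.3 and numpy 2.4.6 were used, and scripts were tested on simulated data.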

Additional observations from a re-analysis of the deposited data

How the results depend on the processing

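Other pseudocounts (0.01 and 1), no floor or a floor of 5 FPKM, summing the rows of a gene, keeping rows of status OK, leaving out Gars and Kars, and counting the shared row as Aars left every median of the synthetases negative. With pseudocounts of 0.01 and 1 the members lower by 0.25 numbered 9 and 8. Ears2 was the only member whose log2 ratio shifted by 0.1 or more. With a pseudocount of 1 it was at -0.30, and Kars (-0.39) was then the lowest member. With a floor of 5 FPKM the mitochondrial median was -0.20 instead of -0.17. The difference between compartments turned from 0.01 to -0.01 with a pseudocount of 1 and was 0.05 with the floor of 5. At a fold of 0.25 instead of 0.5, 9 members were lower. Centring on the median of all genes left 4 members lower by 0.25, and the sign of 7 members changed. With the shortest 3′ UTRs 3 members had a site of 7 or 8 bases, Mars, Mars2 and Dars, while Tars2 and Wars2 had none. The median log2 ratio was then -0.18 for members with such a site and -0.16 for the 32 others, instead of -0.24 and -0.16. For all genes it was -0.16 with such a site and -0.08 without. A fold of 0.25 was a listed alternative, while the count below 0, the other settings of both counts, the centred background and the use of the shared row were chosen after seeing the data. No paired analysis was possible because the table holds 1 pooled value per group, and for the same reason no replicate could be left out.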
